A study of Mus musculus with 12 samples.

Results

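The genes described here are the transcription factor Myc and 35 further genes of ribosome biogenesis, polyamine and nucleotide synthesis, translation and nuclear transport. They were chosen by name as a list of genes that are widely used as a readout of Myc activity and cell growth, and all 36 were among the 32285 genes of the count matrices. Levels are UMI counts (unique molecular identifiers, each 1 captured mRNA molecule). Each gene had at least 21 UMIs in every library, and all 36 passed the filter on low counts in every comparison below. The cells were CD8 T cells of female prediabetic NOD/ShiLtJ mice, a strain that develops autoimmune diabetes, aged 10 to 15 wk. They were sorted as CD45.1+ cells that carried CD8 and lacked the lineage markers CD4, B220 and CD11b. A tetramer of the MHC class I molecule Kd loaded with the mimotope peptide NRP-V7 marked the cells reactive to IGRP, a protein of the insulin-producing β cells. The 3 groups were islet IGRP- cells, islet IGRP+ cells and spleen IGRP+ cells. Each group was profiled in 2 rounds by 10x 5′ single-cell RNA sequencing (scRNA-seq) with T-cell receptor (TCR) sequencing of the same cells. Each round used 1 pool of 10 mice, so a library is a pool and no value belongs to 1 mouse. Spleen cells were also enriched for CD8 T cells with magnetic beads and sorted as CD44+, and islet cells were not. Islets were isolated with collagenase, dissociated and rested in warm medium before sorting, whereas spleens were dissociated mechanically. Tissue, gate and preparation therefore cannot be told apart in the comparison of islet with spleen.

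After the filters 1204 to 8932 cells with 5880696 to 40469961 UMIs remained per library. The median cell held 3793 to 4216.5 UMIs in the islet libraries and 2590 to 2764.5 UMIs in the spleen libraries. The 6 CD8 T cell markers Cd3d, Cd3e, Cd3g, Cd8a, Cd8b1 and Trac summed to 4197.8 to 5883.7 CPM (UMIs of a gene per 1e6 UMIs of the library), and Cd4 stayed at or below 0.2 CPM. Of the B cell markers, Cd79a was at 0 to 0.618 CPM and Cd79b at 1.36 to 11.4 CPM, and the list summed to 1.53 to 11.6 CPM. The myeloid markers summed to 168.8 to 225.2 CPM, of which Cst3 held 145.9 to 194.2 CPM. The endocrine markers summed to 5.27 to 136.4 CPM in the islet libraries and to 0 CPM in spleen. The highest sum was in islet IGRP- of Round 1, where Ppy was at 133.4 CPM. The 8 exocrine pancreas markers summed to 36.1 to 380.7 CPM in the islet libraries and to 2.0 to 2.9 CPM in the spleen libraries, and leaving out cells with 5 or more UMIs of other cell types changed no count of called members by more than 1.5 times. Cells with 3 or more UMIs of 12 proliferation genes made up 5.54 to 7.45% of islet IGRP- cells, 14.6 to 18.9% of islet IGRP+ cells and 0.170 to 0.658% of spleen IGRP+ cells. The upper limit on genes per cell was 3500 in the islets and 2000 in spleen. In the islet libraries the median cell with proliferation genes held 8805 to 9336 UMIs, so the lower spleen limit can leave out such cells. Without the upper limit in all libraries, the median log2 fold change of the 36 genes in islet IGRP+ over spleen was 0.20, against 0.15 with it. The part of the limit in the low spleen share itself was not tested. Between 2 and 64 cell barcodes were shared by a pair of libraries, and no shared barcode carried the same clone in both.

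Myc is a transcription factor that pairs with Max and binds the E-box of growth genes. In T cells it is switched on within hours of antigen recognition and drives the growth that precedes division. Ribosome biogenesis begins in the nucleolus, where RNA polymerase I transcribes ribosomal RNA, small nucleolar ribonucleoproteins (snoRNPs) modify it, and assembly factors fold and cut it into the small and the large subunit. The enzymes of polyamine and nucleotide synthesis supply the materials, and Odc1 and Srm are textbook Myc targets.

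The E-box that Myc and Max prefer has the letters CACGTG, which read the same on both strands. It was searched in the RefSeq promoter windows of build GRCm38.p6, which span 250 bases before to 50 bases after a transcription start. A window was given for 29 of the 36 genes, and 8 of these 29 (27.6%) held the motif against 8.09% of 27025 genes with a window. The 8 genes were Ran, Nop2, Eif4a1, Eif5a, Mettl1, Pes1, Mybbp1a and Wdr43. The stretches below show the motif in capitals for a transport gene, a large subunit gene and a translation factor, all upstream of the annotated gene. Ran was higher in islet IGRP+ than in spleen, and Eif4a1 was so with the round as a block. Nop2 fell with clone size in islet IGRP- cells. Odc1 and Nop58 were also higher in islet IGRP+ than in spleen, and their windows held no motif. Srm had no window. Mettl1, Pes1, Mybbp1a and Wdr43 held the motif and were not called against spleen. Whether the motif goes with these changes was not tested.
Ran, chr5:129019998-129020068, plus strand: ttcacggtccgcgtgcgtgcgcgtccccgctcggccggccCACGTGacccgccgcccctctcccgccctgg
Nop2, chr6:125131783-125131868, plus strand: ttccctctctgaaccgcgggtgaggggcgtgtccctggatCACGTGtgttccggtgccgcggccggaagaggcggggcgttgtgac
Eif4a1, chr11:69672567-69672652, minus strand: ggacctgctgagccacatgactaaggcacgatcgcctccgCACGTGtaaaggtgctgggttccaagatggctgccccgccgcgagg
The motif begins 118, 60 and 189 bases before the start in these windows. A match of letters is a description and shows no binding.

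The 36 genes together took 0.502% and 0.512% of all UMIs in islet IGRP- cells of Rounds 1 and 2. They took 0.567% and 0.505% in islet IGRP+ cells and 0.399% and 0.391% in spleen IGRP+ cells. The exact Clopper-Pearson 95% intervals were at most 0.0122 percentage points wide and cover counting error only. Both spleen libraries lay below all 4 islet libraries, while the islet IGRP+ libraries lay on either side of the islet IGRP- library of Round 2. The islet IGRP+ mean was 0.08 above the islet IGRP- mean and 0.44 above the spleen mean on the log2 scale. Npm1, Eif5a, Ncl, Ran, Odc1 and Eif4a1 supplied 55.4 to 69.1% of the member UMIs, so the sum mostly follows these 6 genes. Without Myc and Odc1 the share was 0.462% and 0.457%, 0.544% and 0.463%, and 0.387% and 0.374% in the same order, so the spleen libraries stayed lowest. In a sum over cells, fewer cells of a type and less RNA per cell cannot be told apart, so the share was also read per cell. After each cell was thinned to 1000 UMIs, the mean cell held 4.75 and 5.03 member UMIs in islet IGRP-, 5.26 and 4.84 in islet IGRP+ and 3.95 and 3.81 in spleen. The SD over cells was 2.96 to 3.56 UMIs in the islet libraries and 2.15 to 2.23 UMIs in the spleen libraries, so thinned cells overlapped widely between groups. With so few member UMIs per cell, counting error alone brings wide overlap. How far the cells overlap apart from it was not tested. The thinning left out 26 to 100 cells per library.

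**Figure D1:**
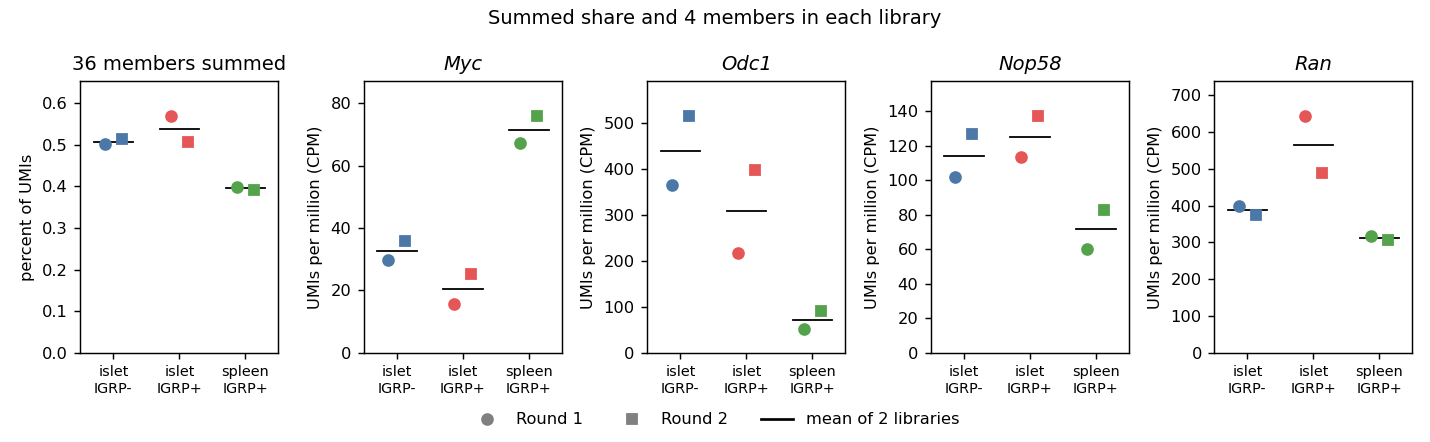
The first panel plots the summed share of the 36 genes as percent of UMIs, and the others plot Myc, Odc1, Nop58 and Ran in CPM, for islet IGRP-, islet IGRP+ and spleen IGRP+ libraries (circles, Round 1; squares, Round 2; line, mean of 2 libraries; the 95% interval of the share is smaller than the symbol). The spleen libraries are lowest for the summed share, Odc1, Nop58 and Ran and highest for Myc, at 67.3 and 75.7 CPM.

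Myc was highest where the summed share was lowest. Its level was 29.7 and 35.8 CPM in islet IGRP- cells of Rounds 1 and 2. It was 15.5 and 25.2 CPM in islet IGRP+ cells, which rest on 91 and 201 Myc UMIs. It was 67.3 and 75.7 CPM in spleen IGRP+ cells. The 3 groups did not overlap, with islet IGRP+ lowest and spleen highest, and the order was the same in both rounds. Within the rounds, Myc in islet IGRP+ was lower than in spleen by log2 values of -2.12 and -1.59, and lower than in islet IGRP- by -0.94 and -0.51.

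The comparison of islet IGRP+ with spleen IGRP+ cells asks how cells of the same specificity differ between the target tissue and the periphery. In edgeR's quasi-likelihood test on counts summed per library, 3 members were higher in the islets and 1 was lower, where 26.6% of 11277 genes tested were called (13.7% higher and 12.9% lower). Members were thus not called more often than genes at large. Their median log2 fold change was 0.15 against -0.03 over all genes tested, and 26 of 36 were above 0. On simulated counts with 200 changed genes of 11057, none of them at the lowest levels, the edgeR fit recovered 7% of changes of log2 1. It recovered 87% of changes of log2 2. Far more genes were called in the data, which makes the adjusted p less strict, so these recovered shares do not carry over directly. Smaller differences can still be missed, and how many were missed in the data was not tested. With the round as a block 12 members were higher and 2 were lower, where 55.1% of all genes were called (28% higher and 27.1% lower).

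Odc1, the rate-limiting enzyme of polyamine synthesis, had the largest difference of the 36. It stood at 217 and 398 CPM in islet IGRP+ and at 51.7 and 91.1 CPM in spleen IGRP+ cells, and at 365 and 514 CPM in islet IGRP- cells. The islet and spleen libraries were far apart and did not overlap. The log2 fold change of islet IGRP+ over spleen was 2.20 ± 0.31 (SE, n = 2 libraries per group, edgeR adjusted p = 0.00732), or 4.61-fold.
Nop58, a core protein of the box C/D snoRNPs that guide methylation of ribosomal RNA, was at 114 and 137 CPM in islet IGRP+ and at 60.5 and 83.1 CPM in spleen. It was at 102 and 127 CPM in islet IGRP-, so again only the spleen libraries stood below. Its log2 fold change was 0.91 ± 0.16 (edgeR adjusted p = 0.0115).
Ran, the GTPase that powers traffic through the nuclear pore and also serves the mitotic spindle, was at 642 and 489 CPM in islet IGRP+ and at 317 and 307 CPM in spleen. In islet IGRP- cells it was at 399 and 375 CPM, between the other two groups. Its log2 fold change was 0.97 ± 0.27 (edgeR adjusted p = 0.0469).
Myc had a log2 fold change of -1.73 ± 0.19 (edgeR adjusted p = 0.00422), so it was 3.33-fold lower in islet IGRP+ than in spleen IGRP+ cells. It was called lower under every alternative run, with log2 values from -1.98 to -1.37.

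With cells with proliferation genes left out, edgeR called Odc1, Nop58 and Ncl higher and Myc lower, where 25.3% of 11126 genes were called. Ran then had a log2 fold change of 0.48 ± 0.21 and was not called (edgeR adjusted p = 0.151), though it was called in the fit with the round as a block (0.47 ± 0.12, edgeR adjusted p = 0.00427). The 9 early-activation genes summed to 1899.8 and 2871.3 CPM in islet IGRP+, 3673.0 and 3145.5 CPM in spleen and 2893.3 and 3786.9 CPM in islet IGRP- cells. They did not move together. Cd69, Jun, Fos and Ier2 were lower in islet IGRP+ than in spleen, with log2 values of -1.90, -1.98, -1.30 and -0.87. Nr4a1 and Egr2 were higher, with log2 values of 2.63 ± 0.58 and 1.93 ± 0.26 (edgeR adjusted p of 0.0232 and 0.00631), and Egr1, Junb and Fosb were not called. Their part in the Myc difference was not tested.

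With the round as a block, C1qbp, Ncl, Npm1, Nop16, Nolc1, Nhp2, Rrp12, Eif4a1 and Eif5a were also higher in islet IGRP+ than in spleen, and Polr1b was also lower. Of these only Rrp12 overlapped between the 2 groups, at 6.12 and 18.8 CPM in islet IGRP+ against 6.14 and 10.9 CPM in spleen. Its libraries of Round 1 were level. Npm1, a nucleolar histone chaperone, was at 1240 and 1024 CPM in islet IGRP+ and at 868 and 732 CPM in spleen. Its blocked log2 fold change was 0.59 ± 0.13 (edgeR adjusted p = 0.00150). Ncl, which binds nascent ribosomal RNA, was at 515 and 562 CPM against 375 and 395 CPM. Its blocked log2 fold change was 0.58 ± 0.12 (edgeR adjusted p = 0.00143). In Ncl and Npm1 the islet IGRP+ and spleen libraries did not overlap. Eif4a1, the RNA helicase of the cap-binding complex, was at 424 and 309 CPM against 232 and 160 CPM, with a blocked log2 fold change of 1.00 ± 0.12 (edgeR adjusted p = 1.39e-05). Eif5a, which carries the polyamine-derived residue hypusine, was at 883 and 663 CPM against 552 and 481 CPM. For both genes every islet library lay above both spleen libraries, and the 2 islet groups overlapped.

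The remaining roles held few called members. Fbl, the methyltransferase of the box C/D snoRNPs, was at 104 and 123 CPM in islet IGRP+ and at 104 and 131 CPM in spleen, with a log2 fold change of 0.04 ± 0.16. Of the box H/ACA snoRNP proteins, which guide pseudouridylation, Nop10 was at 242 and 176 CPM in islet IGRP+ and at 271 and 244 CPM in spleen, and its log2 fold change was -0.19 ± 0.32. Nhp2 of the same complex was at 161 and 114 CPM against 91.0 and 89.9 CPM. Mybbp1a, a Myb-binding protein of the nucleolus, was at 34.9 and 64.3 CPM against 41.6 and 70.1 CPM, and the libraries of Round 2 were higher in every group. Among the small subunit factors Wdr43 was at 53.1 and 55.6 CPM against 55.0 and 53.4 CPM and the groups overlapped. Among the large subunit factors Pes1 was at 43.4 and 46.9 CPM against 38.4 and 48.2 CPM. Mettl1, which methylates tRNA, was at 17.7 and 13.03 CPM against 14.1 and 14.0 CPM. The 8 large subunit genes had log2 fold changes from -0.29 to 0.78, and none was called without the block. In islet IGRP- cells of Rounds 1 and 2 Npm1 was at 1122 and 1003 CPM, Eif5a at 674 and 623 CPM, Fbl at 101 and 133 CPM and Nop10 at 234 and 178 CPM. Mybbp1a was there at 43.4 and 81.5 CPM, Wdr43 at 55.2 and 59.4 CPM, Pes1 at 32.5 and 45.8 CPM and Mettl1 at 16.9 and 17.8 CPM. Npm1, Eif5a, Wdr43 and Mettl1 had both islet IGRP- libraries above both spleen libraries, by the least in Wdr43, and the other 4 overlapped or lay below. In CPM, 11 members were higher in both islet IGRP+ libraries than in both spleen libraries (26.4% of all genes were) and 7 were lower (34.6% of all genes).

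**Figure D2:**
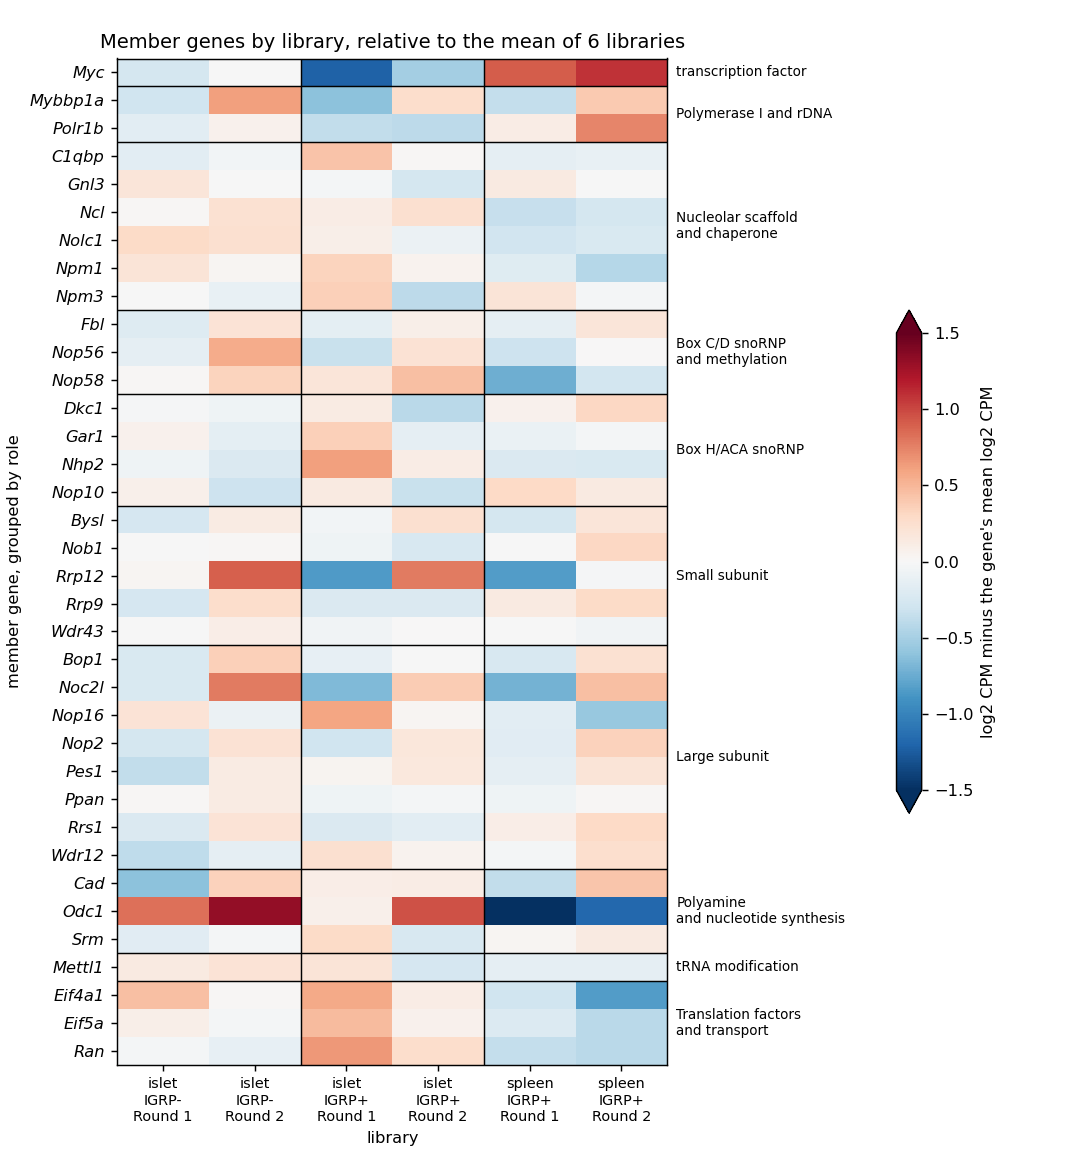
Each row is 1 of the 36 genes, grouped by role, and each column 1 of the 6 libraries; the colour gives log2 CPM minus the gene's mean log2 CPM over the libraries, cut at -1.5 and 1.5. Myc is darkest red in the spleen columns, Odc1 is darkest blue there, and Noc2l and Mybbp1a change more between rounds than between groups.

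Several members differed between rounds in every group. Rrp12, which helps export pre-ribosomal subunits, was at 11.2 and 20.5 CPM in islet IGRP-, at 6.12 and 18.8 CPM in islet IGRP+ and at 6.14 and 10.9 CPM in spleen. Noc2l was at 32.7 and 65.8, 24.3 and 50.1, and 23.6 and 52.4 CPM in the same order. In both genes every Round 2 library exceeded the Round 1 library of its group. In all, 16 members were higher in Round 2 in every group and 9 were lower in every group, while 55.2% of 7446 genes with a mean of at least 10 CPM were higher and 13.6% were lower. Ribosomal protein genes, which are not members, took 29.7 to 32.5% of UMIs in Round 1 and 22.5 to 26.8% in Round 2.

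Within the islets the comparison of IGRP+ with IGRP- cells asks what sets cells of this specificity apart from the rest of the infiltrate. No member was called by edgeR, where 1.19% of 11277 genes were called, and 1 member (Myc) had an unadjusted p under 0.05. DESeq2 also called 0 members (2 with an unadjusted p under 0.05), where it called 4.17% of genes. On simulated counts with 200 changed genes of 11057, none of them at the lowest levels, the edgeR fit recovered 9% of changes of log2 1. It recovered 92% of changes of log2 2. The lack of calls therefore does not show equal levels. The log2 fold change of Myc was -0.70 ± 0.19 (edgeR adjusted p = 0.158). The other log2 fold changes ran from -0.54 in Odc1 to 0.56 in Ran, with a median of -0.05 over the 36 genes and -0.01 over all genes. With the round as a block 5 members were called, where 30.5% of all genes were (14.4% higher and 16.1% lower). Nhp2 and Ran were then higher in islet IGRP+, with log2 values of 0.50 ± 0.13 and 0.53 ± 0.13. Myc, Odc1 and Noc2l were then lower, with log2 values of -0.69 ± 0.14, -0.56 ± 0.12 and -0.42 ± 0.12. The blocked edgeR adjusted p was 0.00314 for Myc and 0.00349 for Odc1. Cells with a UMI of Ccr7 or Lef1, genes of naive and central memory T cells, made up 58.4 and 64.7% of islet IGRP- cells and 24.7 and 29.8% of islet IGRP+ cells. With such cells left out (chosen after seeing the data) no member was called without the block (0 with an unadjusted p under 0.05, 0.038% of 10531 genes called) or with it (9 with an unadjusted p under 0.05, 8.9% of genes called). The median of the members was then 0.08 without the block. The blocked log2 value of Myc was then -0.51 ± 0.16 (edgeR adjusted p = 0.0537). Within the rounds Odc1 was lower in islet IGRP+ by log2 values of -0.75 and -0.37. With cells with proliferation genes left out of the blocked fit, Ran was no longer called, Nolc1 was called lower, and Myc had a log2 value of -0.91 ± 0.15, where 25.9% of 11126 genes were called. In CPM 4 members (C1qbp, Nhp2, Wdr12 and Ran) were higher in both islet IGRP+ libraries than in both islet IGRP- libraries, as were 24.9% of all genes. Lower in both were 6 (Myc, Nolc1, Polr1b, Ppan, Gnl3 and Nob1), as were 21.3% of all genes.

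Of the 36 genes 12 were higher in cells with proliferation genes than in the other cells in all 4 islet libraries, where 28.1% of 7250 genes were, and 9 were lower in all 4, where 32.8% of these genes were. Both shares of members lay near those of all genes. Ran had the largest mean log2 ratio, 1.27, followed by Nhp2 at 0.62 and by Dkc1 and Cad at 0.55. Odc1 at -0.51, Rrp12 at -0.49 and Gnl3 at -0.40 were lower. Cad, which starts pyrimidine synthesis, and Dkc1, the pseudouridine synthase of the H/ACA complex, were thus on the side of Ran, and Odc1 was on the other. Myc was at 24.4 and 30.7 CPM in cells with and without proliferation genes of islet IGRP- in Round 1, and at 25.2 and 37.0 CPM in Round 2. In islet IGRP+ it was at 18.3 and 14.0 CPM in Round 1 and at 34.2 and 22.1 CPM in Round 2, so the direction differed between the 2 groups and this difference was not tested.

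Clones found in both tissues allow cells with the same TCR to be compared. Each library pools 10 mice, so identical TCRs can also have arisen in different mice. The paper found some tetramer-positive clones in both rounds. Common descent within a clone is therefore assumed and was not tested. Cells were put in the same clone where the nucleotides of both CDR3s, α and β, were identical, using only cells with exactly 1 productive chain of each kind. In Round 1, 14 clones had at least 10 cells in both islet IGRP+ and spleen IGRP+, and in Round 2, 19 clones did. The summed share was higher in the islet cells of the clone in 14 of 14 and in 19 of 19 clones. The median clone was at 0.575% in islet and 0.377% in spleen in Round 1 and at 0.513% and 0.375% in Round 2. Odc1 was higher in islet in 14 of 14 and 19 of 19 clones. Myc was higher in spleen in 12 of 14 and 17 of 19 clones, with 1 clone of Round 1 without a Myc UMI in either tissue. Its median over clones was 15.5 CPM in islet and 55.0 CPM in spleen in Round 1 and 26.3 and 51.9 CPM in Round 2. Clones of 1 library share their pool and preparation, so these counts are a description. Over the libraries, with only the cells of clones found in both tissues of a round, edgeR again called Odc1, Nop58 and Ran higher and Myc lower, where 23.3% of 10546 genes were called. The log2 fold change of Myc was then -1.38 ± 0.22 (edgeR adjusted p = 0.0115).

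**Figure D3:**
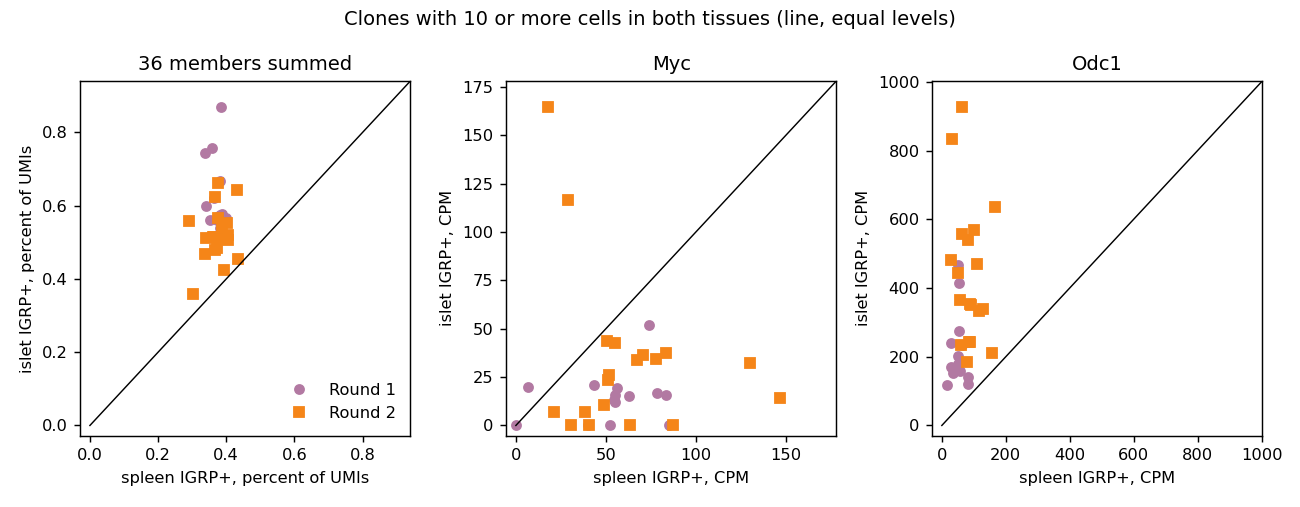
Each point is 1 clone with at least 10 cells in islet IGRP+ and in spleen IGRP+ of the same round (circles, 14 clones of Round 1; squares, 19 clones of Round 2), plotted at its spleen level (x) and its islet level (y) for the summed share in percent of UMIs and for Myc and Odc1 in CPM. All points lie above the line of equal levels for the summed share and Odc1, and 29 of the 33 points lie below it for Myc.

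Clone size was the second axis. In the islet IGRP- and spleen IGRP+ libraries, cells of clones with 2 or more cells were compared with cells whose TCR was found once, with the library as a term in the fit. The islet IGRP- libraries held 1389 and 2959 single-cell clones and 1603 and 2524 cells of larger clones. The spleen libraries held 252 and 162 single-cell clones and 1408 and 1506 cells of larger clones. Most single-cell clones were cells with a UMI of Ccr7 or Lef1. Such cells made up 83.2 and 88.04% of the single-cell clones of islet IGRP- and 87.7 and 85.8% of those of spleen, against 31.3 to 36.8% of the cells of larger clones. Cells with proliferation genes made up 2.66 and 1.18% of the single-cell clones of islet IGRP- and 16.2 and 12.9% of the cells of larger clones. In islet IGRP- the median cell held 3811 and 3731 UMIs in single-cell clones and 4595 and 4297.5 UMIs in larger clones. In spleen the order was reversed, with 3856.5 and 4138 UMIs in single-cell clones and 2612 and 2838.5 UMIs in larger ones. The part of this depth difference in the fold changes below was not tested. The median gene had higher CPM in larger clones, by log2 values of 0.17 and 0.15 in islet IGRP- and of 0.31 and 0.19 in spleen. The fit scales this shift out by 0.21 and 0.17 and by 0.29 and 0.16, so the fold changes below are relative to it.

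In islet IGRP- cells 20 members were lower in larger clones and 1 was higher, where 43.4% of 10742 genes were called (21.5% higher and 21.9% lower). The median log2 fold change was -0.32 over the members and -0.03 over all genes. Of the 20 called lower, 18 were also lower in CPM in both libraries, the exceptions being Bop1 and Wdr43. Over all members 20 were lower in CPM in both libraries (27.1% of all genes were) and 11 were higher (55% of all genes). The summed share was 0.502% in single-cell and 0.512% in larger clones of Round 1 and 0.526% and 0.500% in Round 2. The log2 change of its mean was -0.02, and -0.22 with ribosomal protein and mitochondrial UMIs left out of the total. Ran, Eif5a and Ncl had higher CPM in the larger clones of both libraries.
Myc was at 40.4 and 39.97 CPM in single-cell clones and at 23.4 and 29.1 CPM in larger clones of Rounds 1 and 2. Its log2 fold change was -0.78 ± 0.12 (edgeR adjusted p = 4.67e-06).
Mettl1 fell most, from 19.4 and 20.6 CPM to 11.97 and 13.3 CPM, with a log2 fold change of -0.84 ± 0.13 (edgeR adjusted p = 6.28e-06).
Nob1, the nuclease that makes the final cut of the small subunit RNA, was at 45.1 and 48.7 CPM and then at 35.1 and 35.6 CPM. Odc1 was at 409 and 587 CPM and then at 319 and 440 CPM, and Gnl3, a nucleolar GTPase, was at 74.2 and 61.6 CPM and then at 58.1 and 46.9 CPM. These 3 genes had log2 fold changes of -0.60, -0.58 and -0.56. In each of them both libraries moved the same way.
Rrp12 was at 12.97 and 22.9 CPM in single-cell clones and at 9.55 and 18.6 CPM in larger ones. Rrp9, which binds the U3 snoRNA, was at 20.5 and 26.2 CPM and then at 14.6 and 22.1 CPM. Ppan, a large subunit factor, was at 39.2 and 41.0 CPM and then at 30.5 and 34.1 CPM. The other members called lower were Srm, Npm1, Nop56, Nop10, Rrs1, Mybbp1a, Nolc1, Fbl, Bop1, Pes1, Nop2 and Wdr43, with log2 values from -0.48 to -0.26.
Ran rose from 295 and 305 CPM to 522 and 460 CPM, with a log2 fold change of 0.52 ± 0.08 (edgeR adjusted p = 5.38e-06). With cells with proliferation genes left out, 20 members were called lower and 1 higher, where 38.2% of genes were called.

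In spleen IGRP+ cells 15 members were lower in larger clones and 0 were higher, where 15.7% of 10742 genes were called (8.22% higher and 7.5% lower). The median log2 fold change was -0.45 over the members and 0.04 over all genes, and all 15 were also lower in CPM in both libraries. Over all members 21 were lower in CPM in both libraries (16.8% of all genes were) and 5 were higher (53.8% of all genes). The summed share was 0.473% and 0.453% in single-cell clones and 0.378% and 0.384% in larger clones. The log2 change of its mean was -0.28, and -0.59 with ribosomal protein and mitochondrial UMIs left out of the total.
Nop16, a nucleolar protein of the large subunit path, was at 39.1 and 36.4 CPM in single-cell clones and at 19.9 and 15.0 CPM in larger clones. Its log2 fold change of -1.34 ± 0.23 was the largest of the 36 (edgeR adjusted p = 0.000105). The single-cell clones of spleen held 996207 and 659476 UMIs in all, so levels as low as those of Nop16, Mettl1 and Wdr12 rest on few UMIs.
Srm, which makes spermidine, was at 56.2 and 54.6 CPM and then at 25.4 and 32.8 CPM (log2 fold change of -1.18 ± 0.19, edgeR adjusted p = 3.56e-05).
Myc was at 107 and 118 CPM in single-cell clones and at 53.6 and 68.0 CPM in larger clones, with a log2 fold change of -1.13 ± 0.16 (edgeR adjusted p = 5.01e-06). In each of these genes the 2 single-cell values lay above both values of the larger clones.
Npm1 was at 1271 and 1108 CPM and then at 735 and 678 CPM, with a log2 fold change of -0.98 ± 0.09 (edgeR adjusted p = 1.84e-09). Mettl1 was at 20.1 and 27.3 CPM and then at 11.8 and 12.3 CPM, and Wdr12, a partner of Pes1 and Bop1, was at 20.1 and 27.3 CPM and then at 11.8 and 17.3 CPM. Dkc1 was at 48.2 and 60.7 CPM and then at 30.9 and 37.9 CPM, and Nolc1 was at 73.3 and 97.05 CPM and then at 55.2 and 58.0 CPM. These 4 had log2 fold changes from -1.18 to -0.80. Nhp2, Gnl3, Fbl, Wdr43, Nob1, C1qbp and Eif5a were also called lower, with log2 values from -0.75 to -0.42. Odc1, which fell with clone size in the islets, was at 42.2 and 80.4 CPM and then at 52.6 and 91.5 CPM in spleen, a log2 fold change of 0.03 ± 0.18.

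Most of these calls were lost without the cells with a UMI of Ccr7 or Lef1. This alternative was chosen after seeing the data. The class rests on 1 detected UMI, so it also depends on depth. The median cell with such a UMI held 3847.5 and 3923.5 UMIs in islet IGRP-, against 3708 and 3751 in cells without. These medians were 5780 and 5608 against 3454 and 3737.5 in islet IGRP+ and 2925 and 3132 against 2381 and 2545 in spleen. A cell without such a UMI can still be of the same type. With such cells left out, 234 and 354 single-cell clones remained in islet IGRP- and 31 and 23 in spleen. In islet IGRP- cells Ran was then higher and Nop56 and Odc1 lower, with log2 values of 0.51, -0.38 and -0.36, and no other member was called, where 8.21% of 9697 genes were. In spleen Npm1 was lower, with a log2 value of -0.62 ± 0.15 (edgeR adjusted p = 0.00540), and no other member was called, where 1.97% of 9697 genes were. The log2 value of Myc was then -0.26 ± 0.22 in islet IGRP- and -0.19 ± 0.46 in spleen, not called in either. The median of the members was -0.22 in islet IGRP-, with 28 of 36 below 0, against 0.0051 over all genes. In spleen it was -0.18, with 20 of 36 below 0, against 0.24 over all genes. Myc was at 88.2 and 81.6 CPM in spleen cells with such a UMI and at 47.2 and 70.7 CPM in those without. In islet IGRP- it was at 32.8 and 38.2 CPM with and at 25.1 and 30.9 CPM without, and in islet IGRP+ at 21.5 and 25.4 CPM with and at 12.6 and 25.1 CPM without. Among the cells without such a UMI, Myc remained lower in islet IGRP+ than in spleen, with a log2 fold change of -1.51 ± 0.28 (edgeR adjusted p = 0.0146).

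**Figure D4:**
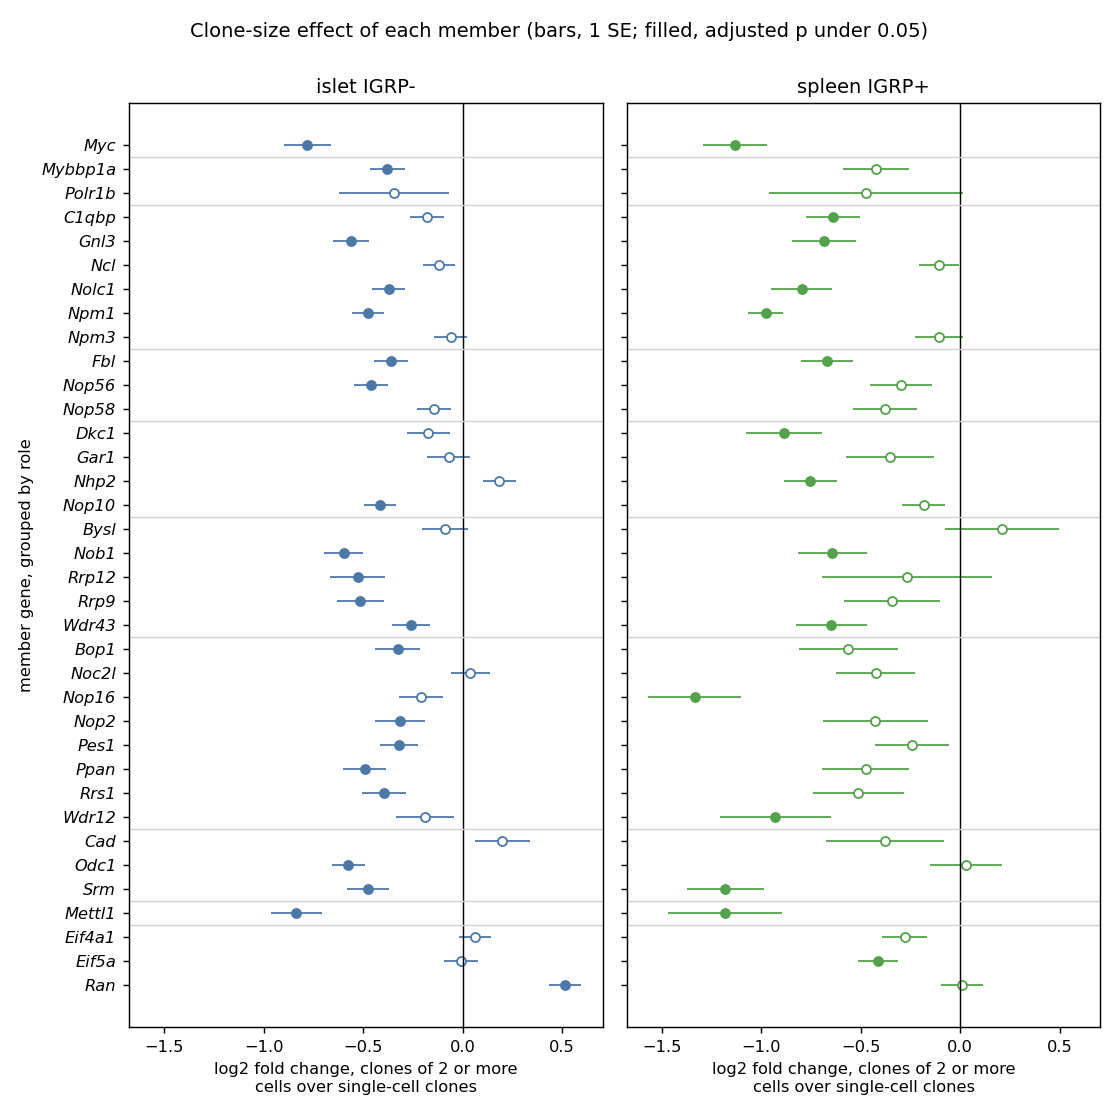
The log2 fold change of each of the 36 genes in clones of 2 or more cells over single-cell clones is plotted with 1 SE for islet IGRP- and for spleen IGRP+ (filled, edgeR adjusted p under 0.05). Most points lie left of 0 in both groups, Ran lies at 0.52 in the islets and at 0.0089 in spleen, and Odc1 lies at -0.58 and at 0.03.

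The difference between the clone-size effects was tested in the same fit. The effect differed between islet IGRP- and spleen for 6 members, where 7.25% of 10742 genes were called (2.9% with the higher effect in the islets). No member was called without the spleen library of Round 1 (1.42% of genes called), without the cells with a UMI of Ccr7 or Lef1 (1.07%) or without the library as a term (0.205%). In all 6 the islet effect was higher than the spleen effect. The differences in log2 were 1.13 ± 0.25 for Nop16, 0.94 ± 0.16 for Nhp2, 0.71 ± 0.22 for Dkc1, 0.71 ± 0.22 for Srm, 0.51 ± 0.13 for Ran and 0.50 ± 0.12 for Npm1. The edgeR adjusted p was smallest for Nhp2, at 0.000187. Nhp2 had 87.8 and 81.9 CPM in single-cell clones and 119 and 102 CPM in larger clones of islet IGRP-, and 121 and 114 CPM and then 79.8 and 85.1 CPM in spleen, higher in larger clones of both islet libraries and lower in those of both spleen libraries. Its islet effect was not called (0.19 ± 0.08, edgeR adjusted p = 0.0699). Nhp2 and Dkc1 belong to the same H/ACA complex. The difference between the Myc effects was 0.35 ± 0.20 and was not called (edgeR adjusted p = 0.335).

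Islet IGRP+ cells had only 12 and 14 single-cell clones, so clones of 10 or more cells were compared with smaller ones, of which there were 28 and 35. No member was called, where 0.745% of 10742 genes were. By unadjusted p under 0.05 there were 2 members, Odc1 with a log2 fold change of -0.38 ± 0.11 and Nhp2 with 0.33 ± 0.14, and DESeq2 called 0 members, where it called 0.362% of genes. Myc was at 28.4 and 18.1 CPM in smaller clones and at 14.6 and 26.2 CPM in clones of 10 or more cells. The rounds moved in opposite directions, and the smaller clones held 14 and 11 Myc UMIs. The summed share was 0.582 and 0.586% in Round 1 and 0.509 and 0.506% in Round 2. Among clones of 20 or more cells the share ran from 0.358 to 0.663% in islet IGRP+ of Round 2, from 0.559 to 0.599% in Round 1 and from 0.303 to 0.431% in the 2 spleen libraries. These ranges rest on 16 islet IGRP+ clones of 22 to 205 cells in Round 2 and on 6 of 56 to 116 cells in Round 1, so they are not compared.

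**Figure D5:**
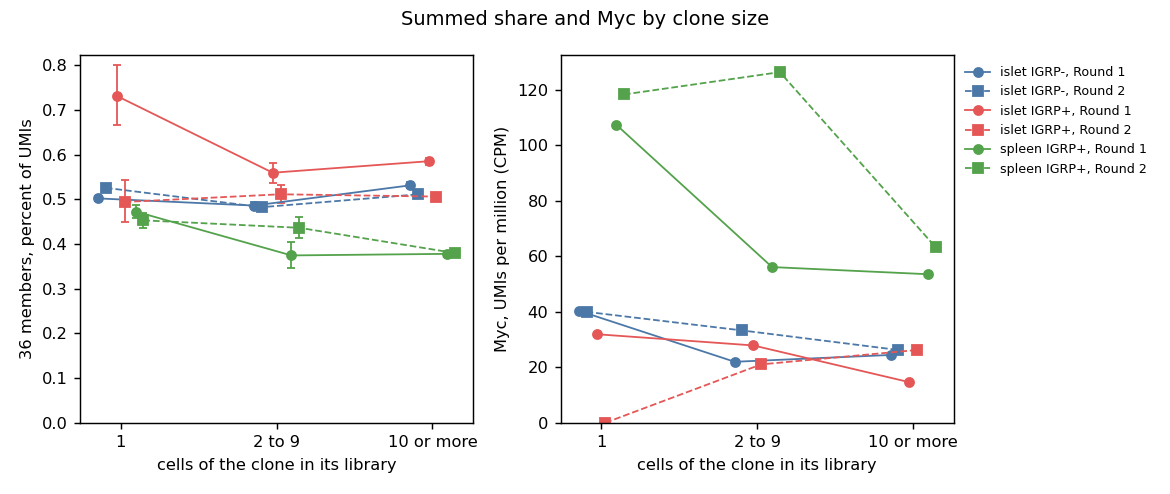
The summed share in percent of UMIs (left, bars give the exact 95% interval of counting) and Myc in CPM (right) are plotted for cells of clones with 1, 2 to 9 and 10 or more cells in each library. Both spleen libraries fall from 0.473 and 0.453% to 0.378 and 0.380% and from 107 and 118 to 53.5 and 63.2 CPM of Myc. The islet IGRP+ points at 1 cell rest on 12 and 14 cells with 2 and 0 Myc UMIs.

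Genes of the same pathways outside the list were read from fixed lists of 135 symbols, of which 133 were found and 131 passed the filter. In islet IGRP+ against spleen 29 were higher and 8 lower, where 13.7% and 12.9% of all genes were, with a median of 0.19 against -0.03 over all genes. Of the 9 tested genes of the Myc network 5 were higher in islet IGRP+, and all 5 (Mxd1, Mxd3, Mxd4, Mxi1 and Mnt) encode partners of Max that repress where Myc activates. Mxd3 rests on very low counts, at 6.29 and 3.51 CPM in islet IGRP+ and at 0.104 and 0.434 CPM in spleen. Mxi1 was at 94.2 and 190 CPM in islet IGRP+ and at 11.8 and 19.0 CPM in spleen (log2 fold change of 3.30 ± 0.41, edgeR adjusted p = 0.00503). Mxd1 was at 63.8 and 85.2 CPM against 18.6 and 21.1 CPM (log2 fold change of 1.99 ± 0.18, edgeR adjusted p = 0.00263). Mga, a further Max partner, went the other way, at 14.1 and 28.1 CPM against 43.2 and 50.1 CPM (log2 fold change of -1.07 ± 0.25). Of the polyamine and nucleotide genes 6 of 17 were higher, among them Impdh2, the rate-limiting enzyme of guanine nucleotide synthesis, at 191 and 195 CPM against 73.4 and 71.1 CPM, with 2 lower, of which Atic was at 22.6 and 23.4 CPM against 37.9 and 57.0 CPM. Of the small subunit factors 7 of 41 were higher and 1 lower (Wdr46, at 18.4 and 22.8 CPM against 38.3 and 48.9 CPM). Of the large subunit factors 4 of 37 were higher and 1 lower, of the translation factors 4 of 12 and 1, of the amino acid transporters 2 of 6 and 1, and of the polymerase I genes 1 of 9 and 1. In islet IGRP+ against islet IGRP- none of the 131 was called without the block (11 had an unadjusted p under 0.05, and DESeq2 called 1). With the round as a block 14 were higher and 16 lower, where 14.4% and 16.1% of all genes were.

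By clone size, 11 of the 131 were higher and 50 lower in islet IGRP- cells, and 2 were higher and 17 lower in spleen. Of all genes 21.5% were higher and 21.9% lower in islet IGRP-, and 8.22% and 7.5% in spleen. The small subunit factors held 21 of the 50, out of 41 tested, and the large subunit factors 14, out of 37. Mxi1 rose with clone size in islet IGRP-, from 37.4 and 64.8 CPM to 93.4 and 214 CPM (log2 fold change of 1.39 ± 0.10, edgeR adjusted p = 2.26e-12). Slc1a5, a glutamine transporter, rose in both tissues, with log2 fold changes of 0.66 ± 0.08 in islet IGRP- and 0.66 ± 0.15 in spleen. Slc3a2, the heavy chain of amino acid exchangers, rose in islet IGRP- by 0.45 ± 0.08, and Azin1, which protects Odc1 from its inhibitor, rose in spleen by 0.74 ± 0.21. Among genes of at least 20 CPM, Atic, Rrn3 and Amd1 fell most in islet IGRP-, with log2 values of -1.05, -0.75 and -0.74, and Nle1, Impdh2 and Utp20 in spleen, with -1.13, -1.08 and -0.86. Impdh2 went from 124 and 105 CPM in single-cell clones of spleen to 64.9 and 63.3 CPM in larger ones.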

How the data were processed

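The authors deposited raw UMI counts per gene and cell, that Cell Ranger had assigned on build mm10 and that were not normalized, and contig tables with UMI counts per TCR chain. The file header gives version 5.0.1. Cells with mitochondrial UMIs under 5% and 200 to 3500 genes (islets) or 200 to 2000 genes (spleen) were kept. The members, the other lists and the tests were chosen with earlier results of these data known.

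Counts were summed per library, or per library and clone-size class, and tested with edgeR 4.0.16 in R 4.3.3 (TMM, filterByExpr, quasi-likelihood test, Benjamini-Hochberg over all genes, called at an adjusted p under 0.05). The library fit had no term for the round, and the clone fit had the library as a term. DESeq2 1.42.0 was an alternative, and limma 3.58.1 came with edgeR. The scripts were tested on simulated counts. Levels and shares came from Python (3.11.15) and its packages pandas (2.3.3), scipy (1.17.1), numpy (2.4.6) and matplotlib (3.10.9). Replicates are 2 pools per group. In the library fit p-values measure the spread between these pools, and with the round as a block the spread left after the round is taken out. In the clone fit the level of each library is taken out. Its p-values measure how the difference between clone classes varied between the libraries of a group (3 residual degrees of freedom over 12 sums). The round numbers in the labels pair the libraries, since each round was 1 pool of mice, and the deviations of same-numbered libraries correlated across 5633 genes of at least 20 CPM with r of 0.852, 0.858 and 0.828. Cells were thinned to 1000 UMIs with seed 1. No correction for free RNA and no doublet caller was applied, and an alternative dropped every cell with 2 or more productive β chains. Further alternatives changed the scaling, the filters, the clone rule, the cells kept and the libraries used.

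Named were Myc in every comparison, the called members with the largest changes (up to 8 per direction), at least 1 member of each role group (the highest mean CPM), and from the other lists up to 3 called genes per direction with at least 20 CPM in the higher group. Whether the counting used strand is not given in the sources used here. Npm1, Ran, Eif4a1 and Eif5a have processed pseudogenes, so their counts are uncertain to the extent that reads were split. Columns of other samples numbered 0.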

Additional observations from a re-analysis of the deposited data

Results flagged for a closer look

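The clone-size effect differed between islet IGRP- and spleen IGRP+ cells for 6 members, by a test of the difference itself. The islet effect minus the spleen effect was 1.13 in log2 for Nop16, 0.94 for Nhp2, 0.71 for Dkc1, 0.71 for Srm, 0.51 for Ran and 0.50 for Npm1. In 5 of the 6 the spleen effect was a fall of at least 0.75 in log2, and Ran was the exception at 0.0089. The single-cell clones of spleen were 252 and 162 cells and those of islet IGRP- 1389 and 2959. Those of spleen held 996207 and 659476 UMIs in all, so genes of low CPM, such as Nop16, rest on few UMIs there. Without 1 library at a time 0 to 3 members were called, with 0 called without the spleen library of Round 1. With cells with a UMI of Ccr7 or Lef1 left out, 0 were called (5 had an unadjusted p under 0.05).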

How the results depend on the processing

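With the round as a replicate block, 5 members were called instead of 0 in islet IGRP+ against islet IGRP- (5 also with cells with proliferation genes left out), and 14 instead of 4 in islet IGRP+ against spleen. The second count was also 14 with those cells left out, 14 without cells with a UMI of Ccr7 or Lef1 and 13 with only shared clones, all blocked and added after seeing the data, 7 without the filter on low counts and 7 without the upper limit on genes per cell. Without the library as a replicate block the clone-size counts went from 21 to 0 in islet IGRP-, from 15 to 2 in spleen and from 6 to 0 for the difference between them, while the share of all genes called went from 43.4 to 7.62%, from 15.7 to 4.41% and from 7.25 to 0.205%. In islet IGRP- the count was 9 with DESeq2 (17.3% of all genes) and 6 with clones cut at 10 cells (27.9%).

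With cells with a UMI of Ccr7 or Lef1 left out (added after seeing the data), the clone-size counts were 3 in islet IGRP-, 1 in spleen and 0 for the difference. Signs also turned, with log2 values of 0.061 for Srm, 0.041 for Wdr43 and 0.20 for Nolc1 in spleen and of -0.12 for Srm in the difference. Only 31 and 23 single-cell clones of spleen remained there, and whether this number set the spleen values was not tested.

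The log2 change of the summed share with clone size was -0.02 in islet IGRP-, 0.00094 in islet IGRP+ and -0.28 in spleen. With ribosomal protein and mitochondrial UMIs left out of the total it was -0.22, -0.027 and -0.59. In islet IGRP+ it was 0.027 without cells with proliferation genes and 0.019 with the chain of most UMIs kept.

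Without 1 library at a time, 2 to 5 members were called in islet IGRP+ against spleen (2 without spleen Round 1 or Round 2), 12 to 13 by clone size in islet IGRP-, 4 to 9 in spleen (4 without Round 1), 0 to 1 in islet IGRP+ and 0 to 3 for the difference. The share of all genes called fell too, to 7.60 to 16.05%, 20.2 to 26.1% and 5.15 to 8.39% in the first 3 and to 1.42 to 4.63% in the last. The Myc value in islet IGRP+ by clone size ran from -0.76 without Round 2 to 0.56 without Round 1. Where 1 library of a group was left, it was assumed to vary like the other groups. The cause of these changes was not tested. Of the values for single genes under the alternatives, 434 kept their direction and side of the threshold, 174 kept the direction and lost the call, 2 gained it and 5 turned.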
